A study of Mus musculus with 4 samples.

Results

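Nuclear receptors are transcription factors that bind small fat-soluble ligands (hormones, vitamins, heme, drugs) or have no known ligand. Most sit on short DNA elements beside their target genes, and many do so as a pair with a retinoid X receptor. In the intestine they relay thyroid hormone, corticosteroids, vitamin D, retinoic acid and foreign compounds to the epithelium, and some of them form part of the circadian clock. The genes described here are 35 members of the family, taken by symbol from a list of the family, out of 30284 genes quantified in mouse intestinal organoids. Genes of the liver X receptors (LXR), retinoid X receptors, peroxisome proliferator-activated receptors, the farnesoid X receptor and HNF4 are not among them. The rule goes by gene names and uses no measured value.

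The organoids were grown from small intestinal crypts of 2 male C57BL/6J mice aged 9 weeks, an age that the labels tie to day 0 of a DSS experiment, although no DSS treatment of these cultures is described. Crypts of each mouse were seeded in Matrigel and given either 2 µM GW3965, a synthetic agonist of both LXR proteins, or DMSO, its solvent, for 6 h before RNA was taken. There were therefore 2 GW3965 and 2 DMSO cultures (n = 2 in each), one of each from each mouse. Every p-value below sets a difference against the spread between these cultures. The tests estimate that spread for each gene or transcript partly from the others. With the mouse as a block, edgeR's gene fit took it wholly from the others. The comparison asks which receptors the epithelium transcribed and whether LXR activation changed their transcript levels.

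The 4 libraries held 16572359 to 19486547 estimated counts, and 18250 to 18524 genes had an estimated count above 0. A known LXR target rose in both mice. Abca1, a cholesterol exporter, had 42.8 and 60.4 CPM (counts scaled to the library total) in GW3965 cultures, against 0.462 and 1.75 CPM in DMSO cultures, a log2 fold change of 5.54 ± 0.43 (± SE, edgeR adjusted p = 0.00134). All 7 epithelial markers, all 6 small intestinal markers and all 8 immune cell markers averaged at least 1 TPM (a level per transcript length, scaled to the library total), while the mesenchymal and endothelial list did so for 2 of 9 genes and Sox10 of glia was at 0 in every library. In the labels, the extraction protocol names colon tissue. The summed level of 4 colon markers was 36.3 to 57.8 TPM in all libraries, and that of the 6 small intestinal markers 4783 to 6457 TPM. The GW3965 culture of mouse 1 stood apart from the others. Mitochondrial genes took 14% of its counts and 7.6 to 9.43% of the other libraries. Its summed epithelial markers were 10060 TPM, against 15715 to 17617 TPM in the other libraries, and its summed immune markers were 200.6 TPM, against 85.1 TPM in the GW3965 culture of mouse 2 and 102 to 115 TPM in DMSO cultures. The part of these differences in the results below was not tested, but values without this library are given where they matter.

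Sequence differences between transcripts of 2 members matter for reading the levels, because each pair of forms makes a different receptor protein or was assigned reads differently between the cultures. Thra, the gene of thyroid hormone receptor alpha, makes a hormone-binding form (alpha 1) and a form with another carboxy-terminus that does not bind the hormone (alpha 2). The coding stretches below run on the plus strand of chromosome 11 (GRCm38, GENCODE M21 transcripts). Both start with the same 30 bases, chr11:98764376-98764405. Capitals mark the 60 bases after the point where the forms part, chr11:98764406-98764465 in alpha 1 and chr11:98768157-98768216 in alpha 2.
Thra alpha 1 (ENSMUST00000103139): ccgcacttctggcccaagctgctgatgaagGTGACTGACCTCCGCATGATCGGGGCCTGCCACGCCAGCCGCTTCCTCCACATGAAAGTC
Thra alpha 2 (ENSMUST00000064187): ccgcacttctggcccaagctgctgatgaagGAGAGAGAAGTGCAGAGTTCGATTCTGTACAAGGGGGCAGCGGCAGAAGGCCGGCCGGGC
Alpha 1 reads on through the same exon from there, whereas alpha 2 skips to an exon further along the gene. The hormone-binding alpha 1 codes for 410 amino acids and alpha 2 for 492. Nr1i3 encodes CAR, the constitutive androstane receptor, which senses drugs and bilirubin. A pair of its full-length coding transcripts differ by 3 bases at the start of exon 7, shown in capitals, and by 51 bases in where the first exon starts. The stretch joins chr1:171217195-171217221 to chr1:171217314-171217343 in the longer form and to chr1:171217317-171217343 in the shorter one, on the plus strand.
Nr1i3 longer form: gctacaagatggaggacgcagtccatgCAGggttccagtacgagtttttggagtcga
Nr1i3 shorter form: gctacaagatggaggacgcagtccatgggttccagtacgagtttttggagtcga
The longer form codes for 358 amino acids and the shorter one for 357.

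Levels ran from 0 to 104 TPM. Of the 35 receptors, 17 had at least 1 TPM in all 4 libraries, 20 had at least 0.5 TPM in all of them, and 24 had enough counts to be tested. TPM corrects for transcript length, so it is the scale used here to set receptors side by side. In bulk RNA, fewer cells of a type and less RNA per cell cannot be told apart, which holds for each level and difference that follows.

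**Figure D1:**
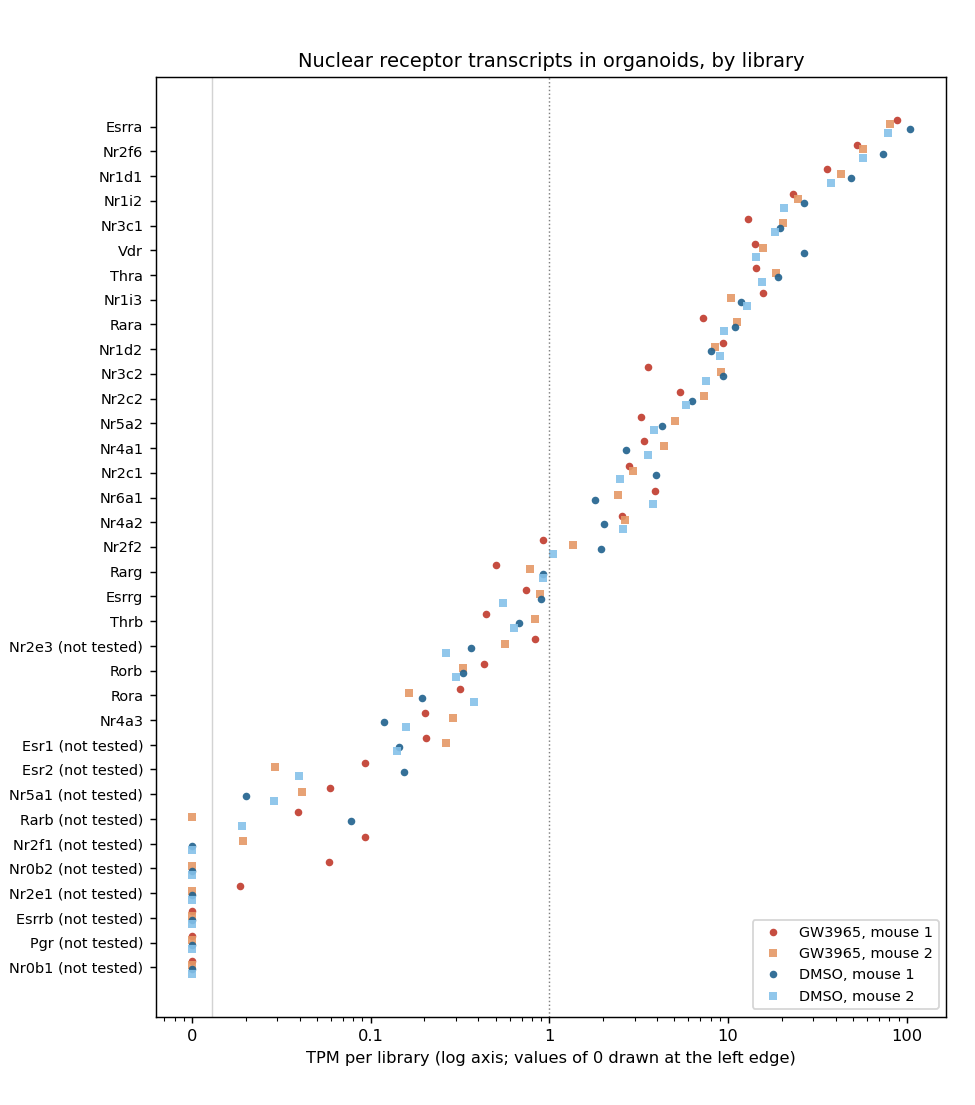
TPM of each of the 35 receptors in each library on a log axis, ordered by the mean over the libraries; circles are mouse 1 and squares mouse 2, and values of 0 are drawn at the left edge. The points run from 78.3 to 104 TPM for Esrra at the top to Esrrb, Pgr and Nr0b1 at 0 in every library, and 17 receptors lie right of the dotted line at 1 TPM in all 4 libraries.

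Orphan and heme-sensing receptors led the order. Esrra encodes ERR alpha, which drives genes of mitochondrial respiration and fat oxidation. It had 87.6 and 80.4 TPM in GW3965 cultures, against 104 and 78.3 TPM in DMSO cultures, and its mean lay at the 95.5th percentile of all genes. Nr2f6 encodes EAR2, an orphan repressor of the COUP group. It had 52.8 and 56.7 TPM in GW3965 cultures, against 73.5 and 57.2 TPM in DMSO cultures. Nr1d1 encodes Rev-erb alpha, the heme-binding repressor of the circadian clock, and had 35.5 and 42.6 TPM in GW3965 cultures, against 48.4 and 37.5 TPM in DMSO cultures. The 4-library ranges of these gene levels did not meet, so their order held in every library on this scale. The place of Nr2f6 above Nr1d1 rested on a shorter annotated form of 270 amino acids, 46.0% of the Nr2f6 level on average. Its form of 390 amino acids had 26.0 and 32.5 TPM in GW3965 cultures, against 35.9 and 29.05 TPM in DMSO cultures. These values lay below the Nr1d1 level of the same library. The range of Nr1d1 also lay above that of Nr1i2, the gene of the pregnane X receptor (PXR), which switches on drug-metabolising enzymes. Nr1i2 had 23.0 and 24.8 TPM in GW3965 cultures, against 26.4 and 20.6 TPM in DMSO cultures, all from a single annotated transcript.

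The next group held hormone and vitamin receptors whose ranges ran into each other, so that no order among neighbours can be given. Nr3c1, the glucocorticoid receptor, had 12.9 and 20.2 TPM in GW3965 cultures, against 19.4 and 18.3 TPM in DMSO cultures. Vdr, the vitamin D receptor that governs intestinal calcium uptake, had 14.1 and 15.8 TPM in GW3965 cultures, against 26.4 and 14.3 TPM in DMSO cultures. Thra had 14.3 and 18.6 TPM in GW3965 cultures, against 19.0 and 15.5 TPM in DMSO cultures. One DMSO culture, that of mouse 1, held the highest Vdr value. Over the 4 libraries, Nr1i3 ranged from 10.4 to 15.7 TPM, the retinoic acid receptor gene Rara from 7.27 to 11.2 TPM, and Nr1d2, the Rev-erb beta gene, from 8.02 to 9.33 TPM. The Nr1i3 forms of 358 and 357 amino acids made up only 12.6% and 7.48% of its level on average. A form of 221 amino acids made up 28.5%, a retained-intron transcript 22.9% and one annotated for nonsense-mediated decay 20.8%. Nr3c2, the mineralocorticoid receptor that regulates sodium uptake, had 3.56 and 9.18 TPM in GW3965 cultures, against 9.38 and 7.51 TPM in DMSO cultures. In its lowest library, the GW3965 culture of mouse 1, 2 short annotated transcripts of 350 and 612 bases were listed at 0, which reached 2.37 and 2.88 TPM in other libraries. Nr2c2, the testicular receptor TR4, had 5.38 and 7.33 TPM in GW3965 cultures, against 6.28 and 5.82 TPM in DMSO cultures.

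The lowest library of Nr2c2, at 5.38 TPM, was above the highest library of Nr5a2, at 5.02 TPM. Nr2c2 shares sequence with Mrps25 on the other strand, whose part in its level was not tested. Nr5a2 encodes LRH-1, which supports crypt renewal and intestinal glucocorticoid synthesis. It had 3.24 and 5.02 TPM in GW3965 cultures, against 4.26 and 3.86 TPM in DMSO cultures. The immediate early receptor Nr4a1 (Nur77) ranged from 2.67 to 4.36 TPM, the testicular receptor TR2 gene Nr2c1 from 2.49 to 3.95 TPM, the germ cell nuclear factor gene Nr6a1 from 1.79 to 3.88 TPM and Nr4a2 (Nurr1) from 2.01 to 2.67 TPM. From Nr5a2 down to Nr4a2, the ranges of neighbours in the order overlapped. Nr2f2, the COUP-TFII gene, followed at 0.925 and 1.35 TPM in GW3965 cultures, against 1.95 and 1.05 TPM in DMSO cultures. That placed it below every library of Nr4a2 and above every library of Rarg, the next receptor.

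The remaining receptors were below 1 TPM in every library. Rarg ranged from 0.504 to 0.923 TPM, Esrrg, the ERR gamma gene, from 0.550 to 0.903 TPM, and Thrb from 0.443 to 0.831 TPM. The ROR genes Rorb and Rora ranged from 0.302 to 0.431 and from 0.165 to 0.378 TPM. Thus Rara was more abundant than Rarg, and Thra than Thrb, in each library. Nr4a3 (Nor1) ranged from 0.118 to 0.29 TPM, from 7 to 17 estimated counts a library. The receptor of photoreceptor cells, Nr2e3, ranged from 0.265 to 0.832 TPM but from only 6 to 8 counts a library, and was not tested. Its only transcript annotated as coding was at 0 in every library.

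Sex steroid receptors were at or near the limit of detection. Esr1, oestrogen receptor alpha, had 7.1 and 9.0 estimated counts in GW3965 cultures, against 5 and 5 in DMSO cultures, and Esr2, oestrogen receptor beta, 4.7 and 1.4, against 7.8 and 2.1. The whole Esr1 level lay on a retained-intron transcript, with its coding transcripts at 0 in every library. The progesterone receptor gene Pgr had no count in any library. The same held for Esrrb, a receptor of early embryonic stem cells, and for Nr0b1, the DAX1 gene of steroid-producing glands. A count of 0 allows up to 3 counts, which is 0.181 and 0.154 CPM in the GW3965 libraries and 0.158 and 0.155 CPM in the DMSO libraries, for counting error only. Nr0b2, the SHP gene that bile acids induce through the farnesoid X receptor, and the neural stem cell gene Nr2e1 each had 1 count, both in the GW3965 culture of mouse 1. Rarb, Nr2f1 and Nr5a1, the SF-1 gene of steroid-producing glands, had at most 4 counts in any library.

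Transcript forms added detail to the levels. Alpha 2 made up 65.1% and 63.6% of the sum of both Thra forms in GW3965 cultures, against 56.3% and 64.1% in DMSO cultures. The non-hormone-binding form was therefore the larger one in all 4 cultures. On the TPM scale, alpha 2 had 7.92 and 9.94 in GW3965 cultures, against 7.74 and 9.57 in DMSO cultures. Alpha 1 had 4.25 and 5.70 TPM in GW3965 cultures, against 6.01 and 5.36 TPM in DMSO cultures. A further form of 413 amino acids, outside these percentages, had 1.77 and 2.16 TPM in GW3965 cultures, against 4.02 and 2.21e-04 TPM in DMSO cultures. Neither alpha 1 nor alpha 2 was called by edgeR on transcripts, with log2 fold changes of 0.11 ± 0.24 for alpha 2 and -0.13 ± 0.26 for alpha 1 (± SE, n = 2 in each group, adjusted p = 0.99998 for both). Thra, at chr11:98740638-98769006 on the plus strand, and Nr1d1, at chr11:98767932-98775333 on the minus strand, overlap at their ends, which is where the last exon of alpha 2 lies. Of all 31-base words of alpha 2, 9.87% were also present on the other strand of Nr1d1 or another gene, against 0% of those of alpha 1. The libraries were made with a stranded kit, but the sources used here do not say whether the counting used strand. Reads of such shared stretches may therefore be split.

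**Figure D2:**
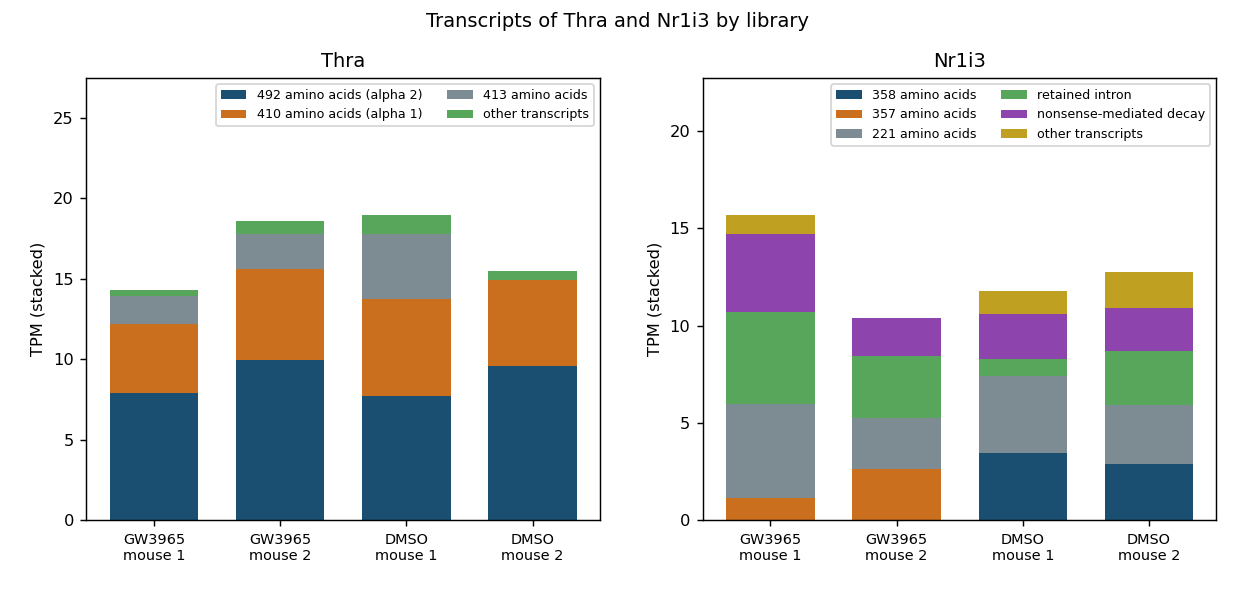
Stacked TPM of the transcripts of Thra (left) and Nr1i3 (right) in the 4 libraries. Each colour is 1 annotated transcript, except the top one, which sums the other transcripts, and bars start at 0. Alpha 2 is the largest part of every Thra bar, and of the near-identical Nr1i3 forms the one of 357 amino acids appears in the GW3965 bars and the one of 358 amino acids in the DMSO bars.

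For Nr1i3 the 2 forms shown above were assigned reads in different cultures. The longer form had 0 estimated counts in both GW3965 cultures, against 76.6 and 65.9 in DMSO cultures. That is 22.2-fold lower when the zeros are set to 3 counts per library. The shorter form had 24.5 and 54.5 estimated counts in GW3965 cultures, against 0 in both DMSO cultures, 13.7-fold higher on the same floor. That floor covers counting error only and not the assignment of reads between forms, so neither fold is a lower bound. The forms shared 93.9% of the 31-base words of the longer one and 97.8% of those of the shorter one, which left 84 and 29 words of their own. Their summed level was 1.16 and 2.63 TPM in GW3965 cultures, against 3.46 and 2.90 TPM in DMSO cultures. edgeR did not call either transcript (adjusted p = 0.784 for both), nor did limma-voom (0.9999 for both). DESeq2 called both, with adjusted p = 0.00111 for the longer form and 0.0390 for the shorter one. When the mouse was added as a block, DESeq2 called the longer form alone (adjusted p = 0.0358, and 0.4005 for the shorter form). edgeR called 0% of all 32357 tested transcripts. Of the 29220 transcripts to which it gave an adjusted p, DESeq2 called 0.667%, and 0.411% with the block. The forms were singled out here after their values were seen. Over all 5 annotated transcripts that carry the 3 bases, the level was 9.74 and 4.6 TPM in GW3965 cultures, against 10.7 and 9.95 TPM in DMSO cultures. The shorter form made up 10.6% and 36.3% of both kinds in GW3965 cultures, against 0% in both DMSO cultures.

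Nr1i3, at chr1:171213970-171220701 on the plus strand, also overlaps Tomm40l, a mitochondrial import gene on the minus strand. Of the 31-base words of Nr1i3 transcripts, 68.1% lay on the other strand of other transcripts, chiefly of Tomm40l, which had 14.2 and 10.7 TPM in GW3965 cultures, against 21.4 and 12.1 TPM in DMSO cultures. Similar overlaps concerned Nr2f6 (47.5%, with Ocel1), Nr2c2 (38.2%, with Mrps25) and Rarb (55.6%, with Top2b). The partner level of Nr2f6 was 11.2 to 13.1 TPM, that of Nr2c2 75.2 to 87.8 TPM and that of Rarb 12.1 to 22.6 TPM over the libraries. How far the levels of these 4 receptors hold reads of the partner was not tested. Among the other members, the share was at most 7.85%, that of Nr1d1 with Thra. Words shared on the same strand with another gene made up at most 1.77% of any member, that of Esr2.

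Other receptors were also split over several annotated forms. The Esrra form of 422 amino acids, full-length ERR alpha, made up 62.2% of the Esrra level on average, and a form of 161 amino acids 11.2%. A further 22.8% lay on a transcript of 654 bases not annotated as coding. Rara was split between forms of 459 amino acids (52.5%) and 462 amino acids (40.5%). The leading pair of Nr3c1 transcripts (41.7% and 29.6%) both code for 792 amino acids, beside a form of 488 (17.3%). Those of Nr2c1 (61.4% and 37.8%) code for 590, and the full-length pair of Nr3c2 (55.9% and 12.6%) for 980. The Nr5a2 level came mostly from a form of 560 amino acids (62.7%), with 28.9% from one of 499. The Vdr transcript of 422 amino acids, the full-length receptor, had 10.3 and 12.8 TPM in GW3965 cultures, against 17.0 and 11.8 TPM in DMSO cultures. The high Vdr level of the DMSO culture of mouse 1 also rested on an annotated fragment of 389 bases. It had 7.12 TPM there and 1.89 to 1.95 TPM in the other 3 libraries. Transcripts annotated for nonsense-mediated decay held 23.4% of the Nr2c2 level and 26.3% of the Nr4a2 level. A retained-intron transcript held 12.0% of the Nr1d2 level. Shorter coding forms held 46.0% of the Nr2f6 level (270 amino acids), 24.4% of that of Nr6a1 (220) and 17.9% of that of Nr2f2 (281). The short Nr3c2 transcripts of 350 and 612 bases held 14.6% and 14.3%.

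No receptor passed the threshold of an adjusted p under 0.05 between GW3965 and DMSO cultures. edgeR's quasi-likelihood test, adjusted by Benjamini-Hochberg over all 13602 tested genes, called 0 of the 24 tested receptors and 8 genes in all, 0.0588% of those tested, each higher with GW3965. At an unadjusted p under 0.05, again 0 of 24 receptors passed, against 1.05% of all genes. DESeq2, limma-voom and edgeR with the mouse as a block also called 0 receptors, against 0.147%, 0.147% and 0.353% of all genes. The fitted log2 fold changes of GW3965 over DMSO ran from -0.33 for Nr3c2 to 0.46 for Rora, with 13 positive and 11 negative and a median of 0.04, against 3e-04 over all genes. For 19 of 24 receptors the 95% interval of the change lay within 2-fold in either direction, and for 8 within 1.5-fold. The 5 receptors whose interval reached beyond 2-fold were the low-level genes Rarg, Rora, Rorb, Esrrg and Nr4a3, for which a 2-fold change was still within the error at this depth.

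**Figure D3:**
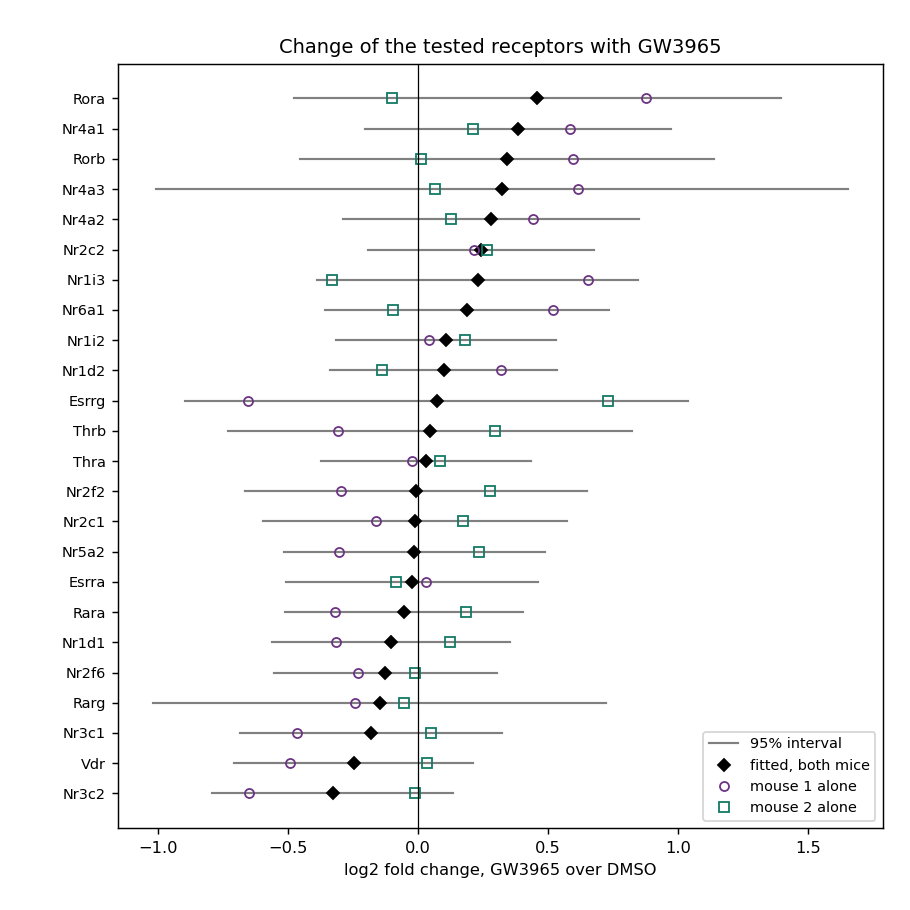
Log2 fold change of GW3965 over DMSO for the 24 tested receptors; diamonds are the fitted values with their 95% intervals, and open circles and squares the differences within mouse 1 and within mouse 2. Every interval crosses 0, and the circles of mouse 1 lie further from 0 than the squares of mouse 2 for 18 of the 24 receptors.

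Most differences came from one mouse. The within-mouse difference was larger in mouse 1 for 18 of 24 receptors, against 73.2% of all genes, with a median size of 0.32 on the log2 scale in mouse 1 and 0.124 in mouse 2 (0.296 and 0.136 over all genes). The 2 mice differed in sign for 15 receptors. They shared it for 9, 37.5%, against 33.5% of all genes. The GW3965 culture of mouse 1, with the high mitochondrial share and low epithelial markers, held the highest or lowest CPM of the 4 libraries for 18 of 24 receptors, 75%, against 74.8% of all genes. Both shares of the receptors thus lay near those of all genes.

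The Nr4a genes are immediate early genes with no known classical ligand that respond within hours to many stimuli. Nr4a1 had 8.53 and 9.23 CPM in GW3965 cultures, against 5.65 and 7.95 CPM in DMSO cultures. Nr4a2 had 7.80 and 7.76 CPM in GW3965 cultures, against 5.70 and 7.11 CPM in DMSO cultures. Nr4a3 had 0.609 and 0.892 CPM in GW3965 cultures, against 0.360 and 0.848 CPM in DMSO cultures. Both GW3965 values of Nr4a1 and Nr4a2 stood above both DMSO values, while those of Nr4a3 overlapped. The log2 fold changes were 0.39 ± 0.26 for Nr4a1, 0.28 ± 0.25 for Nr4a2 and 0.32 ± 0.60 for Nr4a3 (± SE, n = 2 in each group), none called by edgeR (adjusted p = 0.99986 for each). All 3 were positive in both mice, at 0.58, 0.44 and 0.62 in mouse 1 and 0.21, 0.13 and 0.06 in mouse 2. The groups did not overlap for 4 of 24 receptors, 16.7%, against 18.5% of all genes. These were Nr4a1, Nr4a2, Rorb and Nr3c2. Without the GW3965 culture of mouse 1, Nr4a1 had a log2 fold change of 0.44 and Nr4a2 one of 0.28. Without the DMSO culture of mouse 1 they had 0.16 and 0.14, and Nr4a3 turned to -0.16. Without the DMSO culture of mouse 2, Nr4a1 had 0.65, Nr4a2 0.45 and Nr4a3 1.06. Among 14 other immediate early genes, 0 were called, 10 were positive and 4 negative, and the median was 0.07. The phosphatase gene Dusp1 had 53.4 and 58.9 CPM in GW3965 cultures, against 39.6 and 50.7 CPM in DMSO cultures, a log2 fold change of 0.31 ± 0.20.

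**Figure D4:**
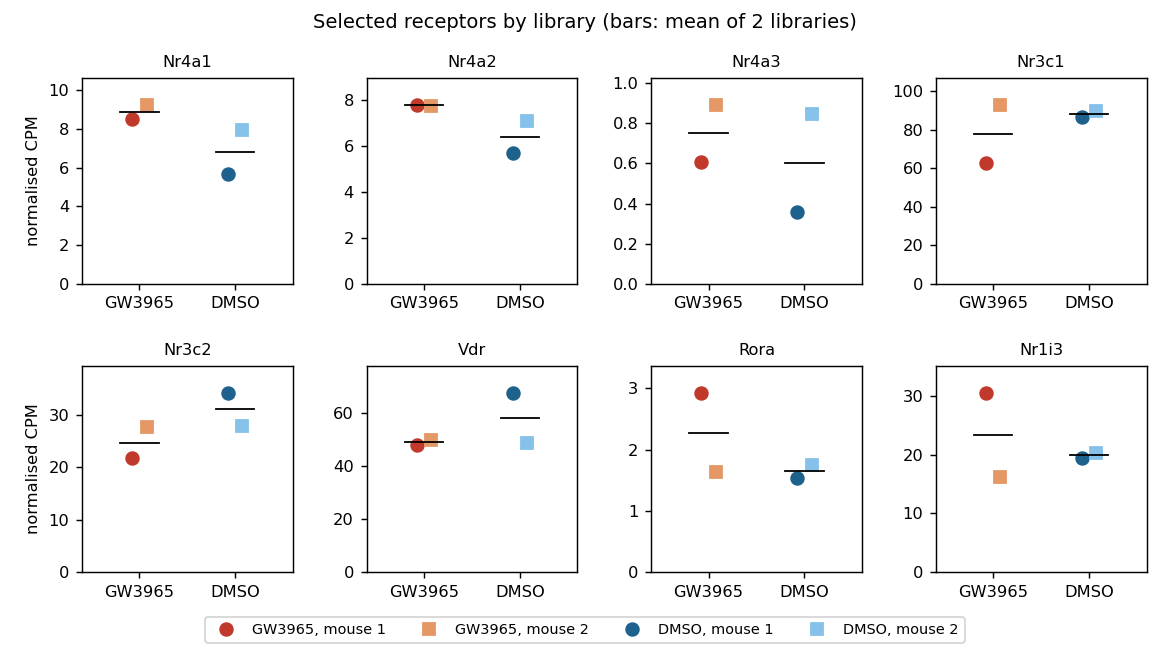
Normalised CPM of 8 receptors in each library, GW3965 on the left and DMSO on the right of each panel, with bars at the mean of 2 libraries and each axis starting at 0. The groups are apart for Nr4a1, Nr4a2 and Nr3c2 and overlap for Nr4a3, Nr3c1, Vdr, Rora and Nr1i3.

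The corticosteroid receptors bind cortisol-like hormones, and both are hormone-dependent activators of genes for stress adaptation and ion transport. Nr3c2 had 21.7 and 27.6 CPM in GW3965 cultures, against 34.1 and 27.8 CPM in DMSO cultures. Nr3c1 had 62.9 and 93.1 CPM in GW3965 cultures, against 86.9 and 89.9 CPM in DMSO cultures. Both were lowest in the GW3965 culture of mouse 1. For Nr3c2 the log2 fold change was -0.33 ± 0.21, with an unadjusted p of 0.1462, the smallest of the 24 receptors, and an adjusted p of 0.99986 (edgeR). It was -0.65 in mouse 1 and -0.01 in mouse 2, and -0.16 in the fit without the GW3965 culture of mouse 1. For Nr3c1 it was -0.18 ± 0.23, at -0.47 in mouse 1 and 0.05 in mouse 2, and 0.07 without that culture. None of 13 tested corticosteroid targets was called, with 5 positive, 8 negative and a median of -0.02. Klf9, a transcription factor gene that glucocorticoids and thyroid hormone both induce, had 22.2 and 37.8 CPM in GW3965 cultures, against 37.5 and 38.0 CPM in DMSO cultures. Its log2 fold change was -0.33 ± 0.25, and edgeR called it only when the GW3965 culture of mouse 2 was left out (-0.76, adjusted p = 0.0469). Of the enzymes that make or remove receptor ligands, 9 of 16 were tested and 0 called, with 4 positive, 5 negative and a median of -0.05.

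The vitamin D and xenobiotic receptors are the sensors of the intestinal lining for nutrients and drugs. Vdr had 48.2 and 50.0 CPM in GW3965 cultures, against 67.7 and 48.9 CPM in DMSO cultures. The DMSO culture of mouse 1 was the high one and the other 3 lay between 48.2 and 50.0 CPM. The log2 fold change was -0.25 ± 0.21, and 0.01 without that culture. Nr1i2 had 59.7 and 54.2 CPM in GW3965 cultures, against 57.9 and 47.8 CPM in DMSO cultures, a log2 fold change of 0.11 ± 0.19. Nr1i3 had 30.6 and 16.2 CPM in GW3965 cultures, against 19.4 and 20.4 CPM in DMSO cultures. Its GW3965 cultures thus held both the highest and the lowest value, and the differences within mouse 1 and mouse 2 had opposite signs, 0.65 and -0.33. Among 7 tested vitamin D targets, 0 were called, 6 were positive and 1 negative, with a median of 0.21, at 0.37 in mouse 1, whose GW3965 culture stood apart, and 0.03 in mouse 2. S100g, the calcium-binding protein calbindin D9k, had 33.6 and 26.0 CPM in GW3965 cultures, against 18.6 and 24.7 CPM in DMSO cultures, a log2 fold change of 0.46 ± 0.22, at 0.85 in mouse 1 and 0.07 in mouse 2. Of 15 PXR and CAR targets, 0 were called, 12 were positive and 3 negative, with a median of 0.09. Abcc2, a drug and bilirubin exporter on both lists, had 413 and 397 CPM in GW3965 cultures, against 319 and 327 CPM in DMSO cultures. The groups did not overlap, and the log2 fold change was 0.33 ± 0.22.

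The clock receptors work as opposing pairs. Rev-erb proteins repress and ROR proteins activate the clock gene Arntl. Nr1d1 had 88 and 97 CPM in GW3965 cultures, against 109.5 and 89.2 CPM in DMSO cultures. Nr1d2 had 40.7 and 32.0 CPM in GW3965 cultures, against 32.6 and 35.3 CPM in DMSO cultures. Their log2 fold changes were -0.10 ± 0.20 and 0.10 ± 0.20, and the within-mouse differences of the pair ran in opposite directions in both mice. Rora had 2.92 and 1.63 CPM in GW3965 cultures, against 1.54 and 1.75 CPM in DMSO cultures. The largest fitted change of all receptors, 0.46 ± 0.42 on the log2 scale, therefore rested on 1 library, the GW3965 culture of mouse 1, and it was -0.02 without it. That library also had the highest summed immune markers, and their part in the Rora value was not tested. Rorb had 4.02 and 2.62 CPM in GW3965 cultures, against 2.62 and 2.60 CPM in DMSO cultures, so that 3 libraries lay almost together below the GW3965 culture of mouse 1. Its log2 fold change was 0.34 ± 0.36, and 0.01 without that library. Of 15 clock partners and outputs tested, 0 were called, with 6 positive, 9 negative and a median of -0.01. Per2 had 15.2 and 15.4 CPM in GW3965 cultures, against 9.5 and 15 CPM in DMSO cultures. Arntl had 18.6 and 19.6 CPM in GW3965 cultures, against 24.9 and 19.4 CPM in DMSO cultures. For both, the DMSO culture of mouse 1 was the one farthest from the others.

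Thyroid hormone and retinoic acid receptors dimerise with retinoid X receptors and hold target genes repressed until the ligand arrives. Thra had 31.6 and 34.7 CPM in GW3965 cultures, against 32.2 and 32.7 CPM in DMSO cultures. Its log2 fold change of 0.03 ± 0.18, with a 95% interval of -0.37 to 0.44, had the smallest SE of the 24 receptors. Thrb had 2.68 and 4.46 CPM in GW3965 cultures, against 3.34 and 3.61 CPM in DMSO cultures. Rara had 20.8 and 27.9 CPM in GW3965 cultures, against 26.0 and 24.5 CPM in DMSO cultures, and Rarg 1.46 and 1.78 CPM, against 1.75 and 1.86 CPM. The groups overlapped for all of these genes, with log2 fold changes of 0.05 ± 0.35 for Thrb, -0.05 ± 0.20 for Rara and -0.15 ± 0.39 for Rarg. All 5 tested thyroid hormone targets of 7 listed had a negative log2 fold change, 4 of them in both mice, with a median of -0.20 and 0 calls. That median was -0.33 in mouse 1 and -0.04 in mouse 2. All 7 epithelial markers had a negative log2 fold change too, with a median of -0.14, at -0.45 in mouse 1 and 0.09 in mouse 2, and their part in the result was not tested. The thyroid target Hr, a corepressor gene, had 26.9 and 29.1 CPM in GW3965 cultures, against 33.6 and 29.9 CPM in DMSO cultures, a log2 fold change of -0.18 ± 0.19. Only 5 of 13 retinoic acid targets could be tested, because Cyp26a1, Cyp26b1, Stra6 and other strongly induced targets were at or near 0, and 0 were called, with 2 positive, 3 negative and a median of -0.04. The transglutaminase gene Tgm2 had 40.6 and 61.5 CPM in GW3965 cultures, against 60.2 and 57.1 CPM in DMSO cultures.

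The oestrogen-related receptors are orphan activators of energy metabolism that work with the coactivator PGC-1. Esrra had 138.6 and 110.8 CPM in GW3965 cultures, against 135.7 and 117.4 CPM in DMSO cultures. Its log2 fold change was -0.02 ± 0.22, with a 95% interval of -0.51 to 0.46. Esrrg had 1.46 and 2.62 CPM in GW3965 cultures, against 2.36 and 1.54 CPM in DMSO cultures, so each treatment held 1 high and 1 low culture. Of 14 tested ERR targets, 0 were called, 3 were positive and 11 negative, with a median of -0.12 in the fit, -0.25 in mouse 1 and 0.04 in mouse 2. The summed epithelial markers were lower with GW3965 in mouse 1, at 10060 TPM against 15917 TPM. They were higher in mouse 2, at 17617 TPM against 15715 TPM, and their part in the ERR target values was not tested. Ppargc1a, which encodes PGC-1 alpha, had 6.94 and 9.23 CPM in GW3965 cultures, against 12.6 and 8.96 CPM in DMSO cultures, a log2 fold change of -0.41 ± 0.27.

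The other orphan receptors were not called either. Nr2c2, whose protein binds direct repeats that retinoid receptors also use, had 33.4 and 40.2 CPM in GW3965 cultures, against 28.8 and 33.4 CPM in DMSO cultures, a log2 fold change of 0.24 ± 0.19. It was positive in both mice, at 0.21 in mouse 1 and 0.27 in mouse 2, and was 0.11 without the GW3965 culture of mouse 2, 0.14 without the DMSO culture of mouse 1 and 0.37 without the GW3965 culture of mouse 1. Nr2c1 had 8.41 and 7.61 CPM in GW3965 cultures, against 9.40 and 6.73 CPM in DMSO cultures, a log2 fold change of -0.01 ± 0.26. Nr2f6 had 75.8 and 74.5 CPM in GW3965 cultures, against 89.0 and 75.0 CPM in DMSO cultures, a log2 fold change of -0.12 ± 0.19. The DMSO culture of mouse 1 was again the high one, and the log2 fold change was 0.01 without it. Nr2f2 had 4.08 and 5.04 CPM in GW3965 cultures, against 5.03 and 4.14 CPM in DMSO cultures. Nr5a2 had 12.9 and 18.1 CPM in GW3965 cultures, against 16 and 15.4 CPM in DMSO cultures, and a log2 fold change of -0.01 ± 0.22. Nr6a1 had 13.2 and 12.5 CPM in GW3965 cultures, against 9.14 and 13.4 CPM in DMSO cultures, and one of 0.19 ± 0.24. The groups overlapped for Nr2c2, Nr2c1, Nr2f2, Nr2f6, Nr5a2 and Nr6a1. Of the LRH-1 targets and steroid synthesis genes, 7 of 11 were tested and 0 called, with 5 positive, 2 negative and a median of 0.03, at 0.51 in mouse 1 and -0.30 in mouse 2. Cyclin D1, Ccnd1, which LRH-1 induces in mouse crypts, had 68.8 and 106 CPM in GW3965 cultures, against 136 and 99.3 CPM in DMSO cultures, a log2 fold change of -0.43 ± 0.26, at -0.98 in mouse 1 and 0.09 in mouse 2.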

How the data were processed

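Poly(A) RNA of 4 organoid cultures was sequenced. Per the submitters' processing notes, the authors used kallisto, FastQC and CASAVA 1.7 with build mm10. The sources used here do not give the version of kallisto, the transcript release or the use of strand. Per the file headers, the deposited files hold estimated counts and TPM per transcript. A deposited series-wide table holds the same estimated counts rounded by the authors (largest gap 0.5). The authors' deposited table of log2 CPM lists 8524 gene symbols, 14 of them members, and was not used for tests.

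Transcripts were matched to GENCODE M21 (GRCm38), 86119 of 88198 (97.6%), summed per gene and rounded. Unmatched transcripts took 0.685 to 0.854% of the counts. Genes passing edgeR's count filter (13602) were tested with edgeR 4.0.16 (R 4.3.3, TMM scaling, quasi-likelihood test, 2 residual degrees of freedom), adjusted by Benjamini-Hochberg. CPM are scaled by TMM; within-mouse log2 differences add a prior count of 2. The SE is the log2 fold change divided by the square root of its F value. The script was first tested on simulated counts of 2 against 2 libraries, with 100 genes changed at each fold. edgeR called 46% of the 2-fold and 93% of the 4-fold changes, so many true 2-fold changes would be missed. The simulation gave each gene the spread typical of its level, with no effect of mouse and no library that stood apart. In the real libraries the shares called may therefore be lower. limma 3.58.1 and DESeq2 1.42.0 were alternatives, as were other scaling, no filter, each library left out, and the mouse as a block. Per the labels, cultures with the same number are of 1 mouse, and their deviations from the group means correlated at 0.072 over genes. Named genes were the 35 members and, of each related list, the 3 tested genes with the smallest p at most. Named transcripts were taken from those with at least 10% of their gene's level. The shorter Nr1i3 form, at 7.48%, is below that share and was picked with its values known. The members, related lists and tests were chosen with earlier results of these data known.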

Additional observations from a re-analysis of the deposited data

How the results depend on the processing

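No receptor was called under any alternative run. The count of genes called was 8 in edgeR's fit, 20 with DESeq2, 20 with limma-voom, 14 without a filter on low counts and 48 with the pairing by mouse as a block, and 34 to 132 over the fits that each leave out 1 library. It was highest without the GW3965 culture of mouse 2 (132) and without that of mouse 1 (57). Leave-out fits have 1 residual degree of freedom and assume that the lone library varies like the others. Over them, the related lists had 0 to 1 calls, the 1 being Klf9. DESeq2 called 195 transcripts, 2 of them of Nr1i3, and 120, 1 of them of Nr1i3, with the block, a setting added after seeing the data, where edgeR called 0. The block changed no call of a receptor. edgeR's gene fit with the block has 1 residual degree of freedom and took the spread of each gene wholly from the others.

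Of 264 recomputed log2 fold changes of the receptors, 27 changed sign and 0 were newly called, and 6 of 24 receptors kept their sign throughout (Rarg, Rorb, Nr2c2, Nr3c2, Nr4a1 and Nr4a2). Nr2c1 turned to 0.0026 with limma-voom, 0.0054 with the block and 0.0068 with DESeq2 and the block. Over the leave-out fits, the log2 fold change ran from -0.0301 to 0.0964 for Thra, -0.37 to 0.36 for Thrb, -0.27 to 0.14 for Rara, -0.24 to 0.0578 for Nr1d1, -0.0824 to 0.27 for Nr1d2, -0.0162 to 0.83 for Rora, -0.46 to 0.0118 for Vdr, -0.0238 to 0.26 for Nr1i2 and -0.30 to 0.63 for Nr1i3. It ran from -0.23 to 0.25 for Nr2c1, -0.16 to 0.15 for Nr2f2, -0.24 to 0.0084 for Nr2f6, -0.19 to 0.14 for Esrra, -0.41 to 0.42 for Esrrg, -0.49 to 0.0739 for Nr3c1, -0.16 to 1.06 for Nr4a3, -0.27 to 0.21 for Nr5a2 and -0.0572 to 0.49 for Nr6a1. For the receptors that kept their sign, it ran from -0.29 to -0.01 for Rarg, 0.01 to 0.63 for Rorb, 0.11 to 0.37 for Nr2c2, -0.51 to -0.16 for Nr3c2, 0.16 to 0.65 for Nr4a1 and 0.14 to 0.45 for Nr4a2. The cause was not tested.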
